A study of Canis lupus familiaris with 16 samples.

Results

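The mitotic count is the number of dividing cells that a pathologist sees in a fixed number of microscope fields, and it is one of the scores from which a canine soft tissue sarcoma is graded. RNA from 16 such tumors, all archived as formalin-fixed, paraffin-embedded blocks from pet dogs, was sequenced in bulk, and the tumors were compared here by that count. The 5 tumors with 10 or more mitoses per 10 high-power fields formed the high group, with 13 mitoses in S1-11, 22 in S1-10, 24 in S2-11, 25 in S1-12 and 45 in S2-06. The other 11 tumors formed the low group, with 0 to 9 mitoses and a median of 2. The counts nearest to the threshold were 13, in S1-11, and 9, in S1-02. The study lists 2 mitotic counts for each tumor. In the other one S1-10 lay below 10, and every other tumor lay on the same side of 10 in both counts. The 2 counts were equal for all S2 tumors, S1-09 and S1-12, and whether those were counted again is not known. By the molecular identity in the labels, the high group held 3 fibrosarcomas (FS: S1-11, S1-12 and S2-06), 1 peripheral nerve sheath tumor (PNST: S1-10) and 1 perivascular wall tumor (PWT: S2-11). The low group held 1 FS (S1-02), 5 PNST and 5 PWT. That identity was assigned by the study from expression in these same libraries, and it moved S1-10 from PWT to PNST and S2-08 from FS to PWT. Dogs of the high group were 9 to 13 years old (median 11.7) and 3 of the 5 were male, while those of the low group were 2 to 14 years old (median 10) and 2 of the 11 were male. S1-04 and S1-05, both low, carry the same clinical labels and may come from the same dog.

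Cells that divide pass through DNA replication and then mitosis, and each step has its own set of genes. E2F factors, released when cyclin-dependent kinases inactivate the retinoblastoma protein, switch on the replication genes. MYBL2 and FOXM1 then switch on the genes of chromosome condensation, the spindle, the kinetochore (the protein plate that ties a chromosome to the spindle) and cytokinesis, so that the RNAs of these genes are most abundant in cells about to divide. In bulk tissue, a larger share of dividing cells and more of these RNAs per dividing cell cannot be told apart.

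Reads counted on genes ranged from 507728 (S1-12) to 2953137 in the high group (median 1721835) and from 726025 to 4311876 in the low group (median 2013129). The counts of the S1 tumors came as 3 runs each, summed here, and those of the S2 tumors as 1, with 3 S1 and 2 S2 tumors in the high group and 6 and 5 in the low group. Of 41818 genes, 15408 reached 10 counts in 4 tumors or more and were tested with edgeR's quasi-likelihood test, once without and once with tumor type as a term. A gene was called when its Benjamini-Hochberg adjusted p was under 0.05 and its absolute log2 fold change above 1. Levels are in CPM, the counts scaled to a common library size with TMM, and a log2 fold change is high over low, given with its standard error.

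Genes of mitosis were higher in most, but not all, of the high tumors. Of 79 genes listed for mitosis and the kinetochore, 70 were tested, and 67 of these had a positive log2 fold change without tumor type, with a median of 1.14, against a median of -0.002 over all genes. In edgeR's fit, 49 of the 70 were higher at an unadjusted p under 0.05 and none was lower, where 5.50% of all genes were higher and 2.75% lower at that p. None passed the threshold for a call. Over all genes, edgeR likewise called 0 (0%), with 1270 (8.24%) at an unadjusted p under 0.05 (847 higher and 423 lower), and the smallest adjusted p in that test was 0.0574. DESeq2's Wald test called 83 genes, 67 higher and 16 lower, and 12 of them were on the mitosis list. It was run without the count filter, so edgeR's shares do not apply to it, and the share of genes it called is not given. Without S2-06 the mitosis median was 0.61, against -0.013 over all genes, and 22 of 68 genes were higher at that p. The share of all genes higher at that p is not given for the fit without S2-06. The 3 members with a negative log2 fold change over all tumors were CDC25B (-0.40), BUB3 (-0.15) and NUSAP1 (-0.13).

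CENPF, a kinetochore protein, had the smallest p of the list. Its level was 277 CPM in S2-06, 123 in S1-11, 64.5 in S1-12, 35.9 in S2-11 and 19.6 in S1-10, and 12.3 to 49.7 in the low tumors (median 18.9). The 3 FS of the high group were above every low tumor, S2-11 was inside the low range and S1-10 was near its median. The log2 fold change was 2.28 ± 0.44 with an adjusted p of 0.104 from edgeR's quasi-likelihood test, and DESeq2 called the gene. KIF20A, a kinesin of cytokinesis, was at 90.3 CPM in S2-06, 57.0 in S1-11, 15.7 in S2-11, 14.7 in S1-12 and 7.97 in S1-10, and at 2.34 to 15.4 in the low tumors (median 6.97). S2-06, S1-11 and S2-11 exceeded all low tumors, and the log2 fold change was 2.28 ± 0.47. CDK1, the kinase that drives entry into mitosis, reached 181 CPM in S2-06, 38.4 in S1-11, 27.6 in S1-12 and 26.2 in S2-11, all above the highest low tumor (25.5, S1-02), and 4.35 in S1-10, where only S1-09 was lower (4.22). Its log2 fold change was 2.32 ± 0.57.

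TOP2A, the topoisomerase that untangles chromosomes before they part, was at 292 CPM in S2-06, 162 in S1-11, 49.7 in S1-12, 39.6 in S2-11 and 18.1 in S1-10, and at 12.7 to 49.2 in the low tumors (median 20.2), with a log2 fold change of 2.15 ± 0.47. MKI67, which codes for the proliferation marker Ki-67, separated the groups less. It was at 180 CPM in S1-11, 118 in S2-06, 56.9 in S2-11, 35.0 in S1-12 and 25.0 in S1-10, and at 23.4 to 74.4 in the low tumors (median 42.4). Only S1-11 and S2-06 were above the low range, and its log2 fold change was 0.97 ± 0.37. AURKB, a mitotic kinase, had a log2 fold change of 0.03 ± 0.42, with 3.68 to 20.4 CPM in the high and 1.79 to 24.6 in the low tumors. Its sign turned when S1-02, S2-04, S1-10, S1-11 or S2-06 was left out. Among the other members of the fixed panel, log2 fold changes were 2.01 ± 0.63 for the spindle checkpoint kinase BUB1, 1.72 ± 0.47 for the spindle motor KIF11, 1.01 ± 0.46 for PLK1, 0.83 ± 0.40 for AURKA and 0.63 ± 0.44 for the cyclin CCNB1. BUB1 was at 59.9 CPM in S2-06 and 14.8 in S1-11, above all low tumors. In the other high tumors it was at 1.09 to 2.99, below the low median of 4.18. With tumor type, its log2 fold change was 0.09 ± 1.06.

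**Figure D1:**
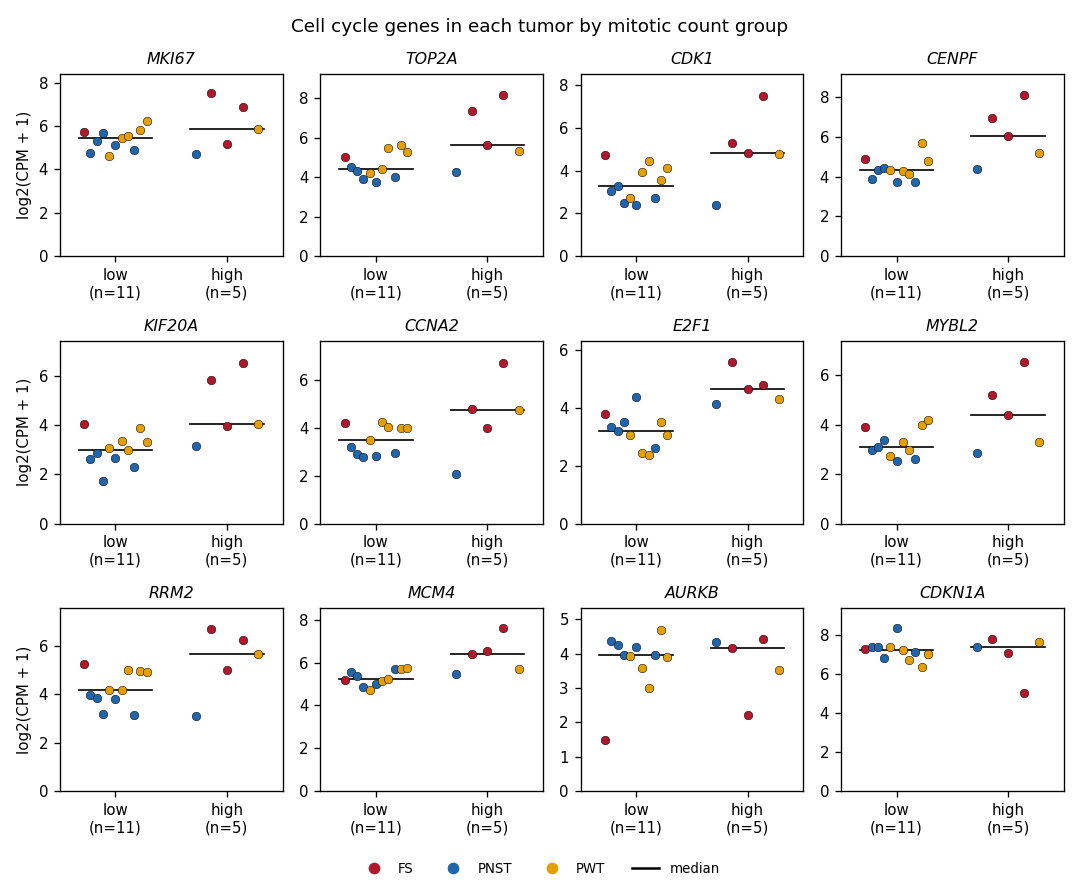
Level of 12 cell cycle genes in each tumor, as log2(CPM + 1), for the 11 low and 5 high tumors, coloured by molecular type, with a line at each group's median. The red FS of the high group lie highest in most panels, and the blue high tumor, S1-10, lies within or below the low range in all 12.

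Genes of replication and of the entry into the cell cycle differed in the same direction, with smaller medians. Of 51 replication genes tested, 22 were higher at an unadjusted p under 0.05 without tumor type and none was lower, with a median log2 fold change of 0.64. MCM4, a subunit of the replicative helicase, was at 43.5 CPM in S1-10, 50.9 in S2-11, 82.8 in S1-11, 93.9 in S1-12 and 196 in S2-06, and at 25.6 to 52.3 in the low tumors (median 36.2). Here S1-10 and S2-11 were inside the upper part of the low range, and the log2 fold change was 1.24 ± 0.29. DTL, which directs the removal of the replication licensing factor, had a log2 fold change of 1.82 ± 0.43, with 4 high tumors (29.5 to 102 CPM) above all low tumors (7.67 to 21.9) and S1-10 (3.99) below them all. MCM2 and RRM2, a subunit of ribonucleotide reductase, had log2 fold changes of 1.02 ± 0.31 and 1.44 ± 0.44, and the replication clamp PCNA of 0.35 ± 0.25. For recombination repair, 4 of 19 genes were higher at that p, with a median of 0.33, and the smallest p values were those of BRIP1 (1.04 ± 0.35) and BRCA1 (1.00 ± 0.36).

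Among 22 drivers of the cycle, 11 were higher at an unadjusted p under 0.05, with a median log2 fold change of 0.96. E2F1, which starts the replication program, was at 16.3 CPM in S1-10, 18.7 in S2-11, 23.9 in S1-12, 26.6 in S2-06 and 46.6 in S1-11, and in the low tumors at 4.18 to 19.6 (median 8.17), so that only S1-09 reached the lowest high tumor. Its log2 fold change was 1.52 ± 0.33 without tumor type and 1.14 ± 0.37 with it, with adjusted p of 0.158 and 0.720 from edgeR's quasi-likelihood test. Without tumor type, MYBL2 (1.83 ± 0.47), the repressor E2F7 (1.62 ± 0.42), the cyclin CCNA2 (1.65 ± 0.49) and FOXM1 (1.36 ± 0.61) had positive log2 fold changes too, whereas those of the early G1 partners CDK4 (0.21 ± 0.27) and CCND1 (-0.38 ± 0.47) were within their errors of 0. With tumor type, the values were 0.45 ± 0.53 for MYBL2, 0.57 ± 0.51 for CCNA2 and 0.04 ± 0.64 for FOXM1, and DESeq2 gave 0.44 for E2F7. Of 15 genes listed as inhibitors of the cycle or with them, CDKN2C, an inhibitor of the G1 kinases, was higher (1.32 ± 0.52) and the ubiquitin ligase MDM2 lower (-0.63 ± 0.28) at that p, and the median was -0.16. CDKN1A, which codes for p21, was at 31.4 CPM in S2-06 and at 134 to 217 in the other high tumors, against 78.7 to 320 in the low tumors. RB1, which codes for the retinoblastoma protein, was at 2.85 CPM in S2-06, the lowest of the 16 tumors, and its log2 fold change between the groups was -0.30 ± 0.39. CDKN2A is not among the genes of the count table used here.

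Summed over the mitosis list, the level was 4676 CPM in S2-06, 2758 in S1-11, 2021 in S2-11, 1481 in S1-12 and 1023 in S1-10. The low tumors spanned 1009 to 1650 CPM with a median of 1196, so 3 high tumors lay above that range and 2 inside it. S1-10 was below the low median, beside the 5 low PNST, which ranged from 1009 to 1196. The highest low tumor was S2-08, a PWT in which 0 mitoses had been counted. S2-06 exceeded all low tumors in 62 of the 70 tested genes, S1-11 in 44, S2-11 in 26, S1-12 in 18 and S1-10 in 3, where the corresponding shares of all 15408 genes were 14.6%, 13.5%, 10.0%, 16.4% and 7.27%. The low tumors, each set against the other low ones, ranged from 0 of the 70 in S2-07 to 19 in S2-08. For S2-08 the share of all genes was 8.22%. S1-12 was the library with the fewest reads, in which 1 count was worth 1.84 CPM.

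**Figure D2:**
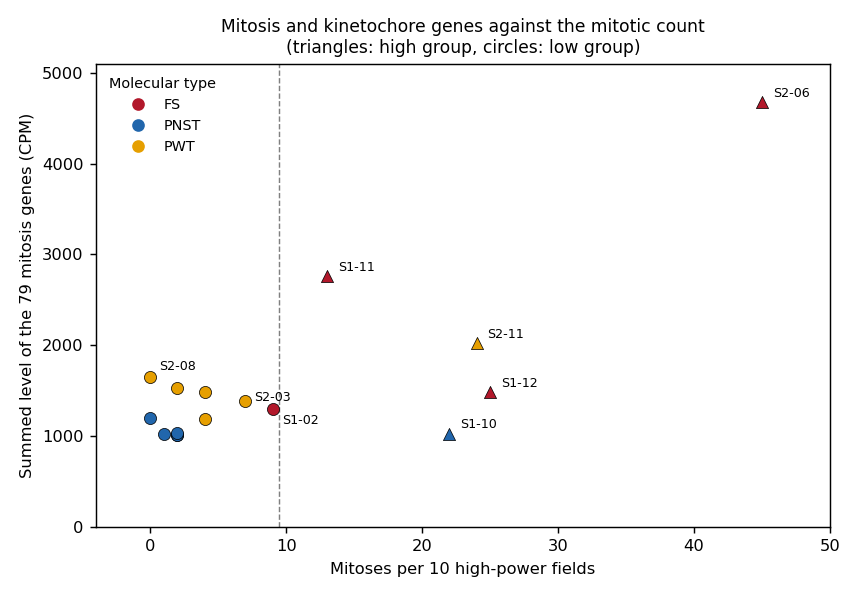
Summed level of the 79 mitosis and kinetochore genes in CPM against mitoses per 10 high-power fields, with 1 point per tumor, coloured by molecular type, and a dashed line between the groups. S2-06, S1-11 and S2-11 lie above all low tumors, S1-12 at 1481 CPM lies inside the low range, and S1-10 lies at 1023 CPM, level with the low PNST.

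Expression was also set against the count itself for the 22 panel genes tested, on the scales log2(CPM + 1) and log2(mitoses + 1), over all 16 tumors. Pearson's r was highest for CDK1 and Spearman's rho for CENPF. CDK1 had Pearson's r of 0.65 (permutation p = 0.00485, adjusted 0.0823 over the panel) and Spearman's rho of 0.64 (permutation p = 0.00853, adjusted 0.0938). Without the 2 tumors whose counts were farthest from the median, r for CDK1 was 0.45, and within the S1 and S2 tumors it was 0.58 (n = 9) and 0.79 (n = 7). For CENPF, r was 0.62 and rho 0.65 over all tumors and r was 0.38 without those 2, and r for MKI67 was 0.35. Within the 11 low tumors, r was 0.54 for CDK1, 0.04 for CENPF and 0.15 for MKI67. There rho was lowest for AURKB (-0.82) and MCM2 (-0.74), so the relation over all tumors did not hold for each gene within the low group. Adjusted p-values of the permutation tests were above 0.05 for all 22 genes.

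The number of genes called depended on S1-10. Without it, edgeR called 77 genes in the fit without tumor type, of which 72 were higher (0.474% of 15187 genes) and 5 lower (0.0329%), and 19 of the 70 mitosis genes were among the 72. In that comparison of 4 tumors with 11, CENPF rose with a log2 fold change of 2.55 ± 0.40, KIF20A by 2.54 ± 0.44, TOP2A by 2.42 ± 0.43 and CDK1 by 2.62 ± 0.49, with adjusted p from edgeR of 0.0107, 0.0154, 0.0154 and 0.0221. DTL, MCM4, RRM2, E2F1, MYBL2 and CCNA2 were also among the 72. The 4 tumors lay above all 11 low tumors in 38 genes (0.247%), of which 10 were on the mitosis list (CDK1, BUB1B, CENPE, SGO1, KIF11, KIFC1, TPX2, PRC1, RACGAP1 and NEK2). With S1-10 counted as a low tumor, as its other mitotic count would have placed it, 110 of 15408 genes were called. Of the 70 mitosis genes, 21 were among them. Without S2-11, without S2-06 or without S1-02, 20, 3 and 1 genes were called, and without any other single tumor 0.

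**Figure D3:**
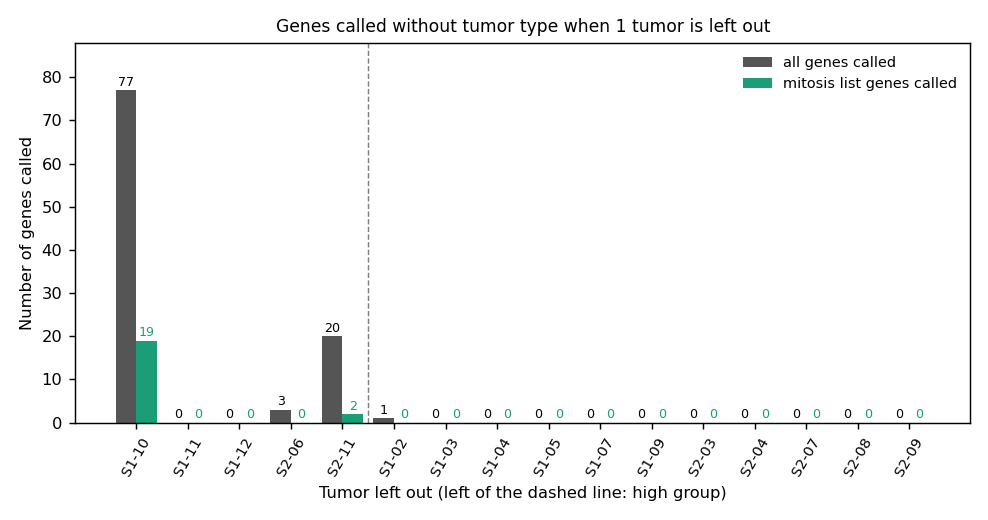
Number of genes called by edgeR in the fit without tumor type when the tumor named on the horizontal axis is left out, over all genes (grey) and over the mitosis list (green). Only the bars for S1-10 (77 and 19), S2-11 (20 and 2), S2-06 (3 and 0) and S1-02 (1 and 0) differ from 0.

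Because 3 of the 5 high tumors are FS and only 1 low tumor is, the comparison was repeated with molecular type as a term. The median log2 fold change of the mitosis list was then 0.61, with 65 of 70 genes positive, and 8 genes were higher at an unadjusted p under 0.05, where 1.51% of all genes were. These were KIF2C (0.99 ± 0.36), MAD2L1 (1.31 ± 0.51), KIF20A (1.10 ± 0.43), SMC2 (0.71 ± 0.28), ANLN (0.88 ± 0.36), CDCA8 (1.10 ± 0.46), KIFC1 (0.69 ± 0.29) and KNL1 (0.85 ± 0.38), named after their values were seen. EdgeR called 0 genes (0%) with tumor type, with 863 (5.60%) at an unadjusted p under 0.05 (233 higher and 630 lower). DESeq2, run without the count filter, called 24, of which 4 were higher and 20 lower and 0 were on the mitosis list. The share of genes it called is not given. The medians of the replication genes and of the drivers were 0.36 and 0.27 with tumor type. For MKI67 the log2 fold change was 0.27 ± 0.44, for TOP2A 0.83 ± 0.53 and for CENPF 1.00 ± 0.49. Without S1-02, the only low FS, the mitosis median with tumor type was 0.20, and without S1-10 it was 1.00, with 22 genes higher at that p. Medians over all genes in those fits were -0.033 and 0.0026, and the shares of all genes at that p are not given. The mitosis median with tumor type was 0.34 without S2-06, and without S2-11 4 genes were higher at that p. With log2(mitoses + 1) in place of the groups, 53 of the 70 had positive slopes with tumor type (median 0.0897). In that fit 0 were higher at that p. Without tumor type, 40 were higher and 1 lower with the number, with a median slope of 0.280.

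Within types, each comparison rests on a single tumor on 1 side and has no replicate check. All 3 high FS exceeded S1-02 in 40 of the 70 mitosis genes, where 20.9% of all genes did so. The high PWT S2-11 exceeded all 5 low PWT in 32 of the 70 (15.5% of all genes). S1-10 exceeded all 5 low PNST in 11 of the 70 (15.0% of all genes) and was below all of them in 14 (13.1%). In 3 genes, the kinesins KIF2C and KIFC1 and the chromosomal passenger protein CDCA8, the high tumors were above the low ones in each of the 3 types, as in 0.448% of all genes, and none of the list was below in each of them, as 0.805% of all genes were. KIF2C was at 14.5 CPM in S1-10, 6.58 in S1-11, 11.0 in S1-12, 15.2 in S2-06 and 10.5 in S2-11, against 3.23 to 9.75 in the low tumors, so that only S1-11 was inside the low range. Without any FS, 2 high tumors against 10 low ones gave a mitosis median of 0.24 without tumor type, and the signs of MKI67, AURKA, FOXM1, MYBL2 and E2F7 turned negative.

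**Figure D4:**
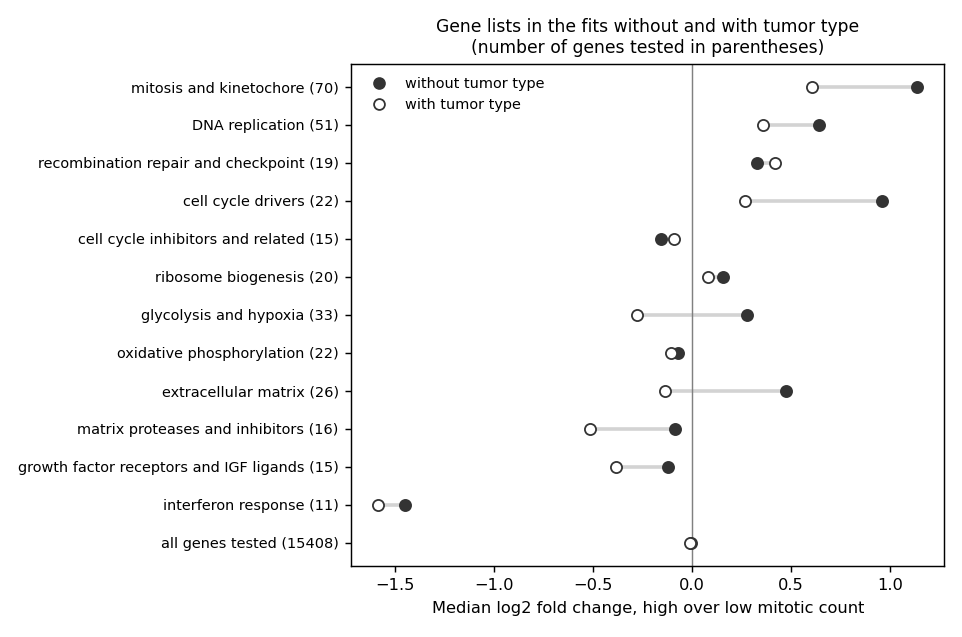
Median log2 fold change, high over low, of 12 gene lists and of all genes tested, without tumor type (filled) and with it (open). The mitosis, replication and driver lists lie to the right of 0 in both fits and nearer to it with tumor type, the glycolysis and matrix lists cross 0, and the interferon list lies at -1.45 and -1.58.

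The medians of the lists for metabolism and stroma differed between the fits. For glycolysis and hypoxia, 26 of 33 genes had a positive log2 fold change without tumor type (median 0.28) and 10 of 33 with it (median -0.28), and 0 were higher at an unadjusted p under 0.05 in either fit, while 1 was lower without and 4 with tumor type. The first was the neuronal enolase ENO2 (-0.93 ± 0.31). HK2, the hexokinase with the second smallest p in the list, was at 36.7 CPM in S1-11, 34.7 in S2-06, 9.21 in S1-12, 0.725 in S1-10 and 0 in S2-11, and at 1.14 to 11.1 in the low tumors. Oxidative phosphorylation and ribosome biogenesis had medians of -0.07 and 0.16 without tumor type. Of 26 extracellular matrix genes, 7 were higher at that p without tumor type and 0 with it, and the medians were 0.48 and -0.14. COL11A1, a fibrillar collagen chain, was at 573 CPM in S1-12, 233 in S1-11, 1.90 in S2-06, 0.748 in S2-11 and 0 in S1-10, and at 0 to 15.4 in the low tumors, so only 2 FS were above the low range, and its log2 fold change was 4.91 ± 1.14 without tumor type. The proteoglycan BGN was likewise high in these 2 tumors, with 1666 CPM in S1-11 and 1230 in S1-12 against 20.2 to 101 in the other high tumors and 38.3 to 253 in the low ones.

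Of 16 matrix proteases and inhibitors, 1 was higher at an unadjusted p under 0.05 without tumor type (PLAU, urokinase, 2.15 ± 0.77) and 3 were lower, and with tumor type the log2 fold changes of all 16 were negative with a median of -0.52. MMP9, a gelatinase, was at 0 to 2.38 CPM in the high tumors and at 0 to 189 in the low ones. It reached 10 counts only in S1-02, S1-04, S2-07 and S2-09, all low. Among growth factor receptors and ligands, 3 of 15 were higher and 1 lower at that p without tumor type, with a median of -0.12. IGF1 was at 225 to 454 CPM in the 3 high FS, 31.9 in S1-10 and 15.0 in S2-11, against 10.9 to 155 in the low tumors, and its log2 fold change was 2.16 ± 0.67 without and -0.06 ± 1.00 with tumor type. IGF2 was at 1160 CPM in S1-11 and at 3.74 to 23.9 in the other high tumors, and its sign turned without S1-11.

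All 11 tested genes of the interferon response, which cells switch on against viruses, had negative log2 fold changes in both fits, with medians of -1.45 and -1.58, and 6 were lower without and 7 with tumor type at an unadjusted p under 0.05, where 2.75% and 4.09% of all genes were lower. EdgeR called none of them, and DESeq2 called IFI44L without tumor type. IFI44L was at 4.75 CPM in S2-06, 3.62 in S1-10, 1.64 in S1-11, 1.50 in S2-11 and 0 in S1-12, and at 2.24 to 62.7 in the low tumors (median 9.29), with a log2 fold change of -2.63 ± 0.77. S1-11, S1-12 and S2-11 were below all low tumors, and only S1-03 and S2-07 among the low tumors were below S2-06. RSAD2, an antiviral enzyme, was at 0 to 3.62 CPM in the high tumors and at 131, 67.4, 66.9 and 46.5 in S1-02, S2-03, S2-04 and S1-09, while the other low tumors had 0 to 5.47. The summed level of the list was 83.8 to 229 CPM in the high tumors and 141 to 787 in the low ones, with 787 in S2-04, 721 in S1-02 and 623 in S2-03 and at most 325 in the other 8. Without S1-02, 3 members were lower at that p without tumor type and 1 with it, and the medians were -1.11 and -1.13. Without tumor type, 2 were lower at that p when S2-04 or S1-12 was left out, and 3 when S2-03 or S2-11 was left out or the prefix of the title, S1 or S2, was a term. With tumor type, 4 were lower without S2-11 and all 11 without S1-10, with a median of -2.66 against 0.0026 over all genes. When the FS were left out, 2 were lower at that p without and 1 with tumor type, with medians of -1.52 and -1.14. For the fits that leave out tumors or add the prefix, the share of all genes lower at that p is not given. With the mitotic count as a number, log2(mitoses + 1), in place of the groups, 0 of the 11 were lower at that p in either fit, and the median slopes were -0.0749 without and -0.322 with tumor type.

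Interferon also induces the presentation of antigens on MHC class I, and some genes of that pathway, chosen after their values were seen, are given as values. DLA88, a canine class I heavy chain, was at 12.0 CPM in S1-10, 9.21 in S1-12, 7.13 in S2-06, 4.39 in S1-11 and 0.748 in S2-11, and at 1.71 to 122 in the low tumors (median 21.1). Its log2 fold change was -2.84 ± 0.59 with tumor type and -2.24 ± 0.84 without, with adjusted p of 0.392 and 0.470 from edgeR's quasi-likelihood test, and DESeq2 called it with tumor type only. The light chain B2M was at 128 to 221 CPM in the high tumors and at 94.4 to 1370 in the low ones, with 1370, 1010 and 988 CPM in S1-02, S2-03 and S2-04, and its log2 fold changes were -1.65 ± 0.51 with tumor type and -1.45 ± 0.59 without. The peptide transporter TAP1 had -1.74 ± 0.53 with tumor type and ranged from 2.99 to 31.3 CPM in the high and from 10.1 to 125 in the low tumors. DESeq2's log2 fold changes for TAP1 were -1.76 with and -0.99 without tumor type. Others of the pathway differed less, with log2 fold changes with and without tumor type of -0.56 ± 0.32 and -0.02 ± 0.33 for TAP2, -0.55 ± 0.43 and -0.05 ± 0.45 for TAPBP and -0.80 ± 0.51 and -0.28 ± 0.51 for DLA-64. Class I heavy chain genes are near copies of each other, so the split of reads among DLA88, DLA-12, DLA-64 and DLA-79 is uncertain.

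**Figure D5:**
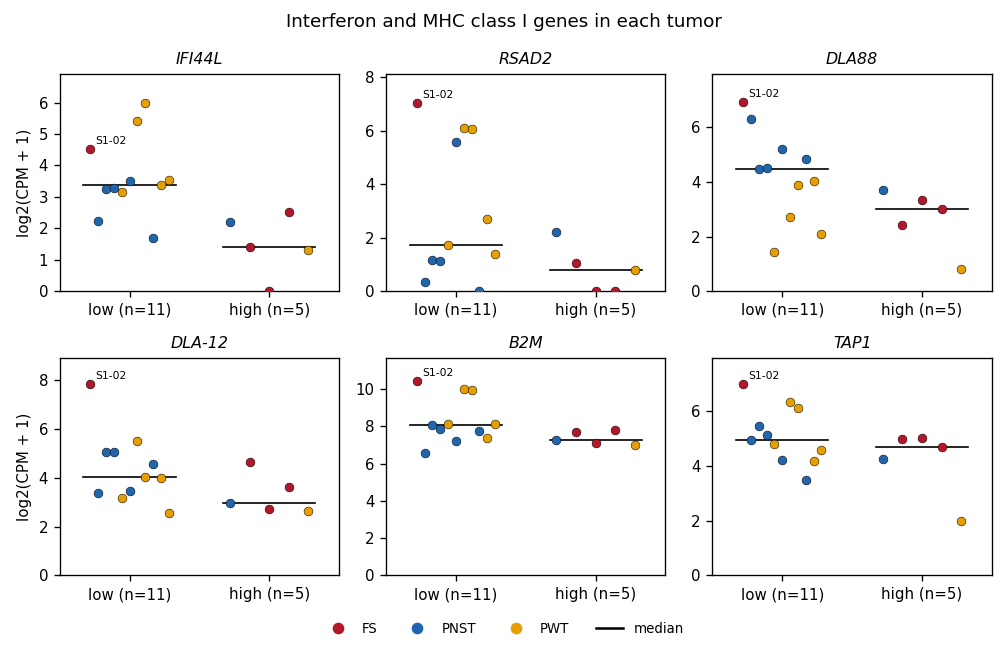
Level of IFI44L, RSAD2, DLA88, DLA-12, B2M and TAP1 in each tumor, as log2(CPM + 1), by group and coloured by molecular type, with a line at each group's median and S1-02 labelled. The median of the high group lies below that of the low group in each panel, and S1-02, the only low FS, is the highest tumor in every panel except that of IFI44L.

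Markers of other cell types moved with some of these lists, and their part in the results was not tested. The 7 T cell markers tested had a median log2 fold change of -1.68 in both fits, and 2 of them were lower without tumor type at an unadjusted p under 0.05, CD2 (-2.40 ± 0.84) and LCK (-1.89 ± 0.86). CD2, LCK, CD3E and IL7R reached 10 counts in low tumors only. For these a lower level in the high group, and with it the list median, was partly built into the choice of genes tested. CD4 went the other way without tumor type (1.32), with 148 counts in S2-06 and at most 52 in any other tumor. With tumor type, 0 of the 7 were positive. The summed T cell level was 20.3 to 91.2 CPM in the high and 23.8 to 130 in the low tumors. Of 12 macrophage markers, 11 were negative without tumor type and all 12 with it (medians -0.44 and -0.77), with 203 to 730 CPM in the high tumors, 282 to 964 in 10 of the low tumors and 1619 in S1-02. Keratinocyte markers summed to 1179 CPM in S1-12 and to 1832, 1783, 1521 and 1292 in S1-02, S1-05, S2-03 and S1-04, against at most 121 in the other 11 tumors, so skin was in blocks of both groups. Of 5 skeletal muscle markers tested, 4 were higher without tumor type at that p, and their list summed to 11474 CPM in S1-11, 1306 in S1-07 and 714 in S2-09 and at most 100 elsewhere. Pericyte and smooth muscle markers had medians of 1.08 and -0.04 without and with tumor type, with 2188 CPM in S1-11. Of 10 resident fibroblast markers, 2 were lower without tumor type at that p, CD34 (-1.21 ± 0.43) and GPX3 (-1.48 ± 0.70), and the list summed to 295 CPM in S1-12, the lowest of the 16 tumors. For neutrophils, 1 marker could be tested, and the list summed to 134 CPM in S2-06 and at most 33.4 in the other tumors. The remaining lists (Schwann cell, endothelial, adipocyte, B and plasma cell and mast cell) had 0 genes at that p without tumor type.

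As edgeR called no gene, the genes with the smallest p in each direction are given as values, chosen after their values were seen. Of those in the next sentences, DESeq2 called COL24A1, TET1, WIF1 and PANK1 without tumor type and none with it. COL24A1, a minor fibrillar collagen, had the smallest p in the fit without tumor type. It was at 152 CPM in S1-11, 107 in S1-12, 30.1 in S1-10, 17.1 in S2-06 and 4.49 in S2-11, and at 0 to 8.25 in the low tumors (median 2.11), so 4 of the 5 high tumors were above them all. Its log2 fold change was 4.25 ± 0.66 without and 2.89 ± 0.69 with tumor type, with adjusted p of 0.0574 and 0.453 from edgeR's quasi-likelihood test. TET1, an enzyme that oxidizes methylated cytosine, was at 86.1 CPM in S1-11, 81.0 in S1-12, 75.1 in S2-06, 34.4 in S2-11 and 16.7 in S1-10, against 8.75 to 27.9 in the low tumors, with a log2 fold change of 1.74 ± 0.33. The Wnt inhibitor WIF1 was high only in S1-12 (1039 CPM) and S1-11 (324 CPM), at no more than 1.45 in the other high tumors and no more than 5.03 in the low ones. PANK1, which starts the synthesis of coenzyme A, was at 4.49 to 51.6 CPM in the high and 0 to 10.8 in the low tumors, and with tumor type its log2 fold change was 2.01 ± 0.60. PCNT and CENPJ, proteins of the centrosome and centriole that organize the spindle, had 0.89 ± 0.25 and 0.95 ± 0.29 with tumor type and 0.69 ± 0.23 and 0.93 ± 0.28 without. UTY, which lies on the Y chromosome, had 6.04 ± 1.62 with tumor type. It was at 67.4 CPM in S1-10, 31.3 in S1-11, 70.3 in S2-11 and 44.6 in S1-09, all labelled male, at 1.84 in S1-12, labelled female, and at 0 in S2-08, which is labelled male, so that 1 label and this gene disagree.

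No gene was above all low tumors in all 5 high tumors, and 7 genes (0.0454%) were below them in all 5, namely OLFML1, CNTNAP2, ATP6V0D2, EEF1AKMT2 and 3 loci without a gene name. OLFML1 was at 26.6 to 50.9 CPM in the high tumors and at 52.5 to 99.2 in the low ones, with log2 fold changes of -0.88 ± 0.22 without and -0.80 ± 0.23 with tumor type. CNTNAP2, a neural adhesion protein, had 0 counts in all 5 high tumors and 0.570 to 27.0 CPM in the low ones. It reached 10 counts only in S1-02, S1-03, S1-04 and S1-05, all low, and so passed the count filter through the low group alone. Taking 3 counts over the high group as the floor, it was at least 20.6-fold lower, but 86 of the 175 counts of the low group were in S1-04, and the bound was 12.0-fold without it and 8.68-fold without S1-04 and S1-05. ATP6V0D2, a subunit of the proton pump of osteoclasts and macrophages, had 1 count in each of S1-10 and S2-06 and 0 in the other high tumors, against 0.547 to 28.6 CPM in the low ones. It too reached 10 counts in low tumors only. For both genes, a lower level in the high group was thus partly built into the choice of genes tested. MOXD1, a monooxygenase-like protein, was at 46.0 CPM in S1-10, 47.2 in S1-11, 27.6 in S1-12, 16.6 in S2-06 and 62.8 in S2-11, against 49.7 to 599 in the low tumors (median 145), so only S2-11 was inside the low range. Its log2 fold changes were -2.31 ± 0.53 without and -2.43 ± 0.53 with tumor type, and DESeq2 called it in both fits, as it did CNTNAP2. GPNMB, a glycoprotein of macrophages and pigment cells, was at 7.37 to 161 CPM in the high and 52.9 to 2054 in the low tumors, the highest being S1-02, with -2.86 ± 0.64 with tumor type, where DESeq2 called it. Without tumor type, DESeq2 gave it a log2 fold change of -1.28 and did not call it.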

How the data were processed

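RNA from 16 formalin-fixed canine tumors was sequenced on an Ion Proton after ribosomal RNA removal. The authors aligned the reads with STAR to ROS-canfam-01 and deposited raw counts per gene from htseq-count, whose version, annotation release and strand setting are not given in the sources used here, so overlapping and antisense genes are uncertain. The 3 runs of each S1 tumor were summed, and the htseq-count totals of reads not on 1 gene were left out (22.9% to 30.6% of reads were on genes). Groups follow the mitotic counts that the study gives for each tumor title. The members and the gene lists were chosen with earlier results of these data known.

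Genes that reached 10 counts in 4 tumors or more were tested in R 4.3.3 with edgeR 4.0.16 (TMM, quasi-likelihood, all 16 tumors), without and with molecular type as a term, and called where the Benjamini-Hochberg adjusted p was under 0.05 and the log2 fold change was beyond 1 in either direction. Standard errors were derived from the F statistic. DESeq2 1.42.0, other scalings and filters, and leaving out each tumor were the alternatives. Genes named are a fixed panel, the 2 members with the smallest p of each list, any called, and others said to be chosen after their values were seen. On data simulated from these libraries, 60% of genes changed by 2 on the log2 scale were recovered without tumor type and 62% with it. Of genes changed by 1, 12% were recovered without and 10% with tumor type. Differences between tumor types were not simulated, so these rates may not hold where type and group overlap, as they do here. Tumors are the replicates, each from 1 library, and floors cover counting error only. Promoter and protein sequences were not analysed here. Some genes of the lists are not reported here by name.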

Additional observations from a re-analysis of the deposited data

Results flagged for a closer look

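Within the 5 high tumors, 7 of 112 values checked had 1 tumor far from the other 4, where chance alone would set apart about 1 in 20. CDKN1A was at 31.4 CPM in S2-06, lower than in the other high tumors. SPP2 was higher in S2-06, at 11.4 CPM. PAPPA2 was at 497 CPM in S1-11, where the skeletal muscle list also summed to 11474 CPM. NDUFS3 was at 0 CPM in S1-12, the shallowest library, and the oxidative phosphorylation list summed to 611 CPM there. TAP1 was at 2.99 CPM in S2-11.

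The difference between high and low tumors was itself different in FS and in the other types for 5 genes, by an interaction term in edgeR's quasi-likelihood test. The effect in FS minus that in PNST and PWT was -4.36 on the log2 scale for the lysosomal protease CTSB (adjusted p = 0.00524), -3.64 for the protease LGMN (0.00524), -7.06 for the transporter SLC1A7 (0.00524), -7.35 for the leptin receptor LEPR (0.0285) and -3.95 for PIK3IP1 (0.0291). Each rests on S1-02, the only low FS, where CTSB was at 9920 CPM against 261 to 734 in the high FS, and where the macrophage list summed to 1619 CPM. Its part in these values was not tested.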

How the results depend on the processing

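No paired analysis was possible because the replicate numbers were given in accession order and only name tumors. Without tumor type, 43 genes were called with no count filter (3 from the mitosis list), 83 by DESeq2 (12), 110 with S1-10 in the low group (21) and 60 without S1-10, S1-12 and S1-02 (20), the last chosen after seeing the data. Leaving out each tumor gave 0 to 77 calls over all genes and 0 to 19 from the mitosis list. With tumor type, 14 were called with no count filter, 24 by DESeq2 and 2 with S1-10 in the low group, and 0 to 2 when each tumor was left out. Signs turned without the FS for the driver median (-0.0604 without and -0.0160 with tumor type) and for the log2 fold changes of MKI67 (-0.0346), AURKA (-0.0216), AURKB (-0.0631), FOXM1 (-0.30), MYBL2 (-0.20), CDKN1A (0.28), RB1 (0.20), E2F7 (-0.0234), CDKN2C (-0.62), HK2 (-3.50), COL11A1 (-3.88), BGN (-1.31), IGF1 (-1.13), IGF2 (-1.44), COL15A1 (-0.28) and NKD1 (-0.24). In the S1 tumors alone they turned for CCNB1 (-0.13), AURKB (-0.0170), CDK4 (-0.0645), RB1 (0.0899) and POLR1B (-0.00817), and in the S2 tumors alone for BGN (-0.22) and IGF2 (-2.04). CDKN1A was at 0.0102 with RLE scaling, 0.00587 with DESeq2 and 0.0481 with counts thinned to the smallest total, and AURKB at -0.13 with S1-10 in the low group. Leaving out each tumor gave log2 values of -0.19 to 0.24 for CDKN1A, -0.12 to 0.23 for AURKB, -1.33 to 3.14 for IGF2 and -0.0183 to 0.48 for the driver median with tumor type. The causes were not tested. Depth limits the low genes, as 1 count in S1-12 was worth 1.84 CPM.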
